A study of Sus scrofa with 54 samples.

Results

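Micro-EMB and conventional EMB were compared at follow-up, on day 7, in the 2 pigs whose hearts had been sampled with both devices. EMB stands for endomyocardial biopsy, the removal of small pieces of the inner heart wall through a catheter. The samples were taken by label, as all follow-up heart samples of pigs 4491 and 4494, and they numbered 10 of the 54 in the series. That choice was made with earlier results of these data known. There were 6 micro-EMB samples, taken with a miniaturized device whose cutting tip is passed through a micro-catheter, and 4 conventional EMB samples, taken with a standard bioptome. In pig 4491 these were micro-EMB samples 8, 15 and 34 and conventional EMB samples 55 and 56. In pig 4494 they were micro-EMB samples 22, 39 and 44 and conventional EMB samples 3 and 50. All 10 came from adult female Yorkshire-Swedish farm swine that were naive before day 0, and were taken from the left ventricle. At baseline, on day 0, both devices had already been used in both hearts, so neither follow-up group came from an unsampled heart, and the labels do not say how far a follow-up piece lay from an earlier biopsy site. Each sample is 1 piece of tissue, and several pieces share a pig, so the p-values measure the spread between pieces of 2 hearts and not between animals.

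A heart biopsy holds a mixture of cells. Cardiomyocytes carry the contractile proteins and the dense mitochondria that feed them, fibroblasts make the collagen-rich matrix between them, and endocardial and vascular endothelium line the cavity and the vessels. After a wound to the heart wall, blood enters first, neutrophils and macrophages then clear the debris, and activated fibroblasts afterwards lay down fibronectin, periostin and collagens as a scar forms. In bulk samples like these, fewer cells of a type and less RNA per cell cannot be told apart.

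The samples differed in depth and in what they contained. Between 801208 and 2836337 reads were counted on genes in the micro-EMB samples, with a median of 1798090. The conventional EMB samples 55, 56, 3 and 50 had 318946, 619934, 74767 and 1884770 reads, so 3 of the 4 lay below every micro-EMB sample. Reads on 115 blood genes made up 1.22% of sample 55 (95% Clopper-Pearson interval 1.18 to 1.26), 1.51% of sample 3 (1.43 to 1.60) and 0.614% of micro-EMB sample 44 (0.603 to 0.626). They made up 0.0272 to 0.206% of the other 7 samples. The same genes took 1.99 to 2.65% of the reads in the series' 6 blood samples and 0.00430 to 0.265% in its 6 skeletal muscle samples. These intervals cover counting error only.

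**Figure D1:**
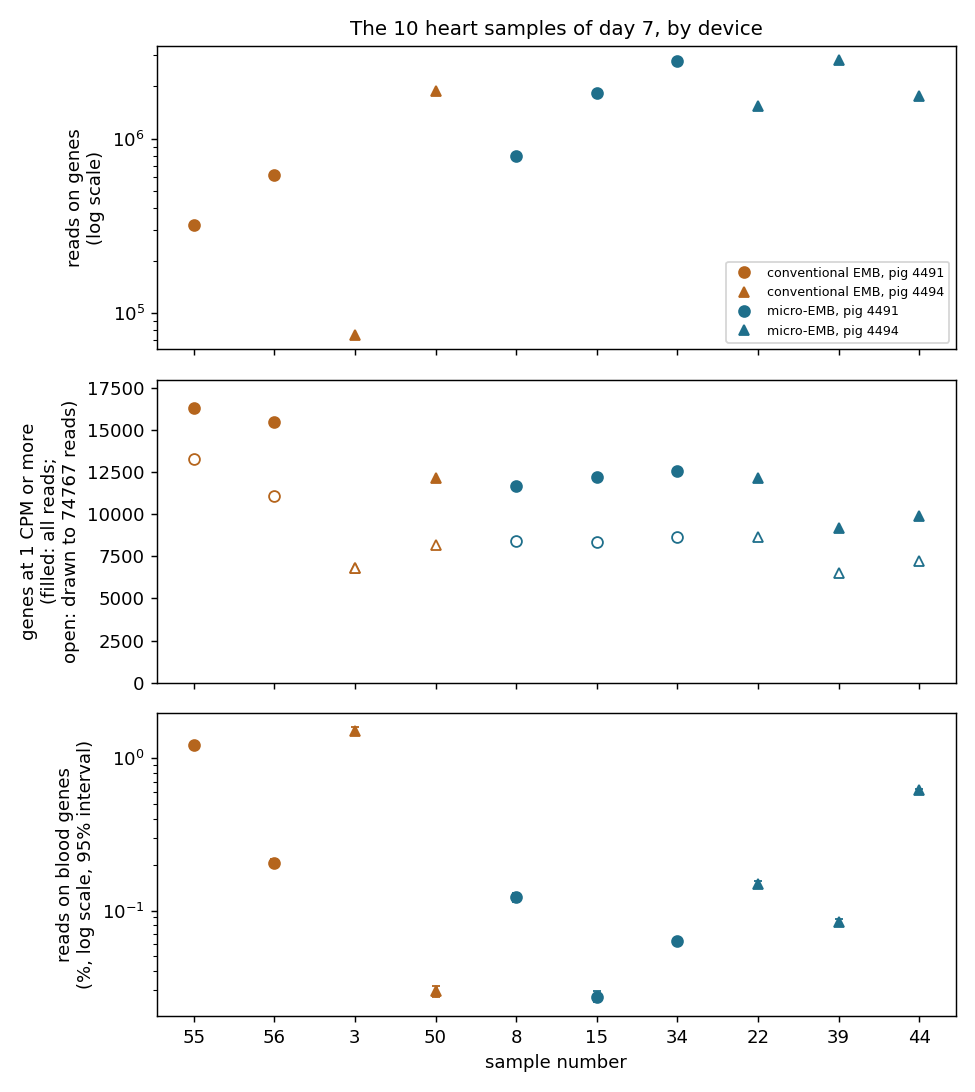
Reads counted on genes, genes at 1 CPM (1 read per 1000000) or more, and the share of reads on blood genes in each of the 10 samples (x axis, sample number), with conventional EMB in brown and micro-EMB in blue. Samples 55, 3 and 44 had the highest blood shares, and samples 55, 56 and 3 the fewest reads.

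The heart label was checked against cardiomyocyte genes, and sample 55 went against it. The summed level of 10 contractile genes was 564 and 7474 CPM in samples 55 and 3, against 105342 and 140357 CPM in samples 56 and 50. CPM values of genes and lists are reads per 1000000 on the tested genes, scaled by TMM factors. The micro-EMB samples held 14906 to 111398 CPM of the same genes. TNNT2, which encodes cardiac troponin T, stood at 28.9, 17182, 565 and 11929 CPM in samples 55, 56, 3 and 50. It ranged from 2258 to 15287 CPM in micro-EMB, with a median of 4345, so every micro-EMB sample held more of it than samples 55 and 3. The gene lists and the main named genes are therefore given with all 10 samples and, where they could be tested, without samples 3, 44 and 55, which leaves 7 samples, 5 of micro-EMB and 2 of conventional EMB (56 and 50).

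No gene passed the test for a device difference over the 10 samples. Of 12137 genes tested with edgeR's quasi-likelihood test and pig as a covariate, 0 were called higher and 0 lower in micro-EMB (0% in each direction) at an adjusted p under 0.05 and a log2 fold change beyond 1. The smallest adjusted p was 0.241. At an unadjusted p under 0.05, 460 genes (3.79%) were higher and 459 (3.78%) lower, or 919 (7.57%) in all. The 2 devices did not overlap for 188 genes (1.55%) in which every micro-EMB sample was above every conventional EMB sample, and for 68 genes (0.56%) in which every one was below. Without samples 3, 44 and 55, 0 of 11947 genes were called, with a smallest adjusted p of 0.931. At an unadjusted p, 366 genes (3.06%) were then higher and 237 (1.98%) lower, or 603 (5.05%) in all.

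The count of calls depended on the test. Of 13054 genes tested by DESeq2 on the same samples, 71 were called higher and 531 lower. Of those 531, 259 had 3 or fewer reads over the 6 micro-EMB samples together, and the median gene had 23, 15, 2 and 2 reads in samples 55, 56, 3 and 50. The 71 higher genes had a median of 250 to 765 reads in each micro-EMB sample, against 16, 29, 1 and 96 in samples 55, 56, 3 and 50. The direction of small differences also depended on scaling, since DESeq2-type size factors in edgeR moved the median log2 fold change of all genes from 0.10 to -0.28 and the unadjusted counts to 249 higher and 720 lower.

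**Figure D2:**
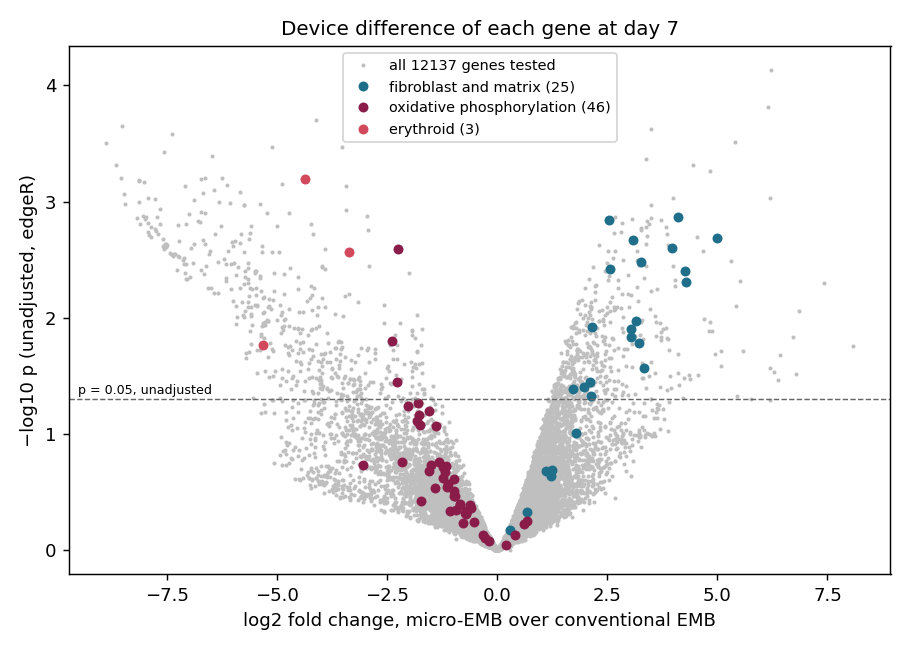
Log2 fold change of each tested gene between the devices at day 7 (x axis, micro-EMB over conventional EMB) against −log10 of its unadjusted p from edgeR (y axis). Fibroblast and matrix genes lie to the right and 19 of 25 are above the dashed line, most oxidative phosphorylation genes lie to the left and mostly below it, and all 3 erythroid genes lie to the left above it.

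Genes of fibroblasts and the extracellular matrix stood higher in micro-EMB, as a group and in both pigs, although none was called. Of 29 genes on the list, 25 could be tested. All 25 had a positive log2 fold change, with a median of 2.55 against 0.10 over all genes tested, and 19 of them had an unadjusted p under 0.05 where 3.79% of all genes were higher by that rule. For 6 genes no micro-EMB sample overlapped with a conventional EMB sample (1.55% of all genes). The summed level of the list was 3196, 8082, 5885 and 16968 CPM in conventional EMB samples 55, 56, 3 and 50. In micro-EMB it was 94225, 35543 and 118015 CPM in samples 8, 15 and 34, and 46471, 106536 and 23025 CPM in samples 22, 39 and 44. The lowest micro-EMB sample, sample 44, was thus above the highest conventional EMB sample, sample 50.

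FN1, which encodes fibronectin, the glycoprotein of early wound matrix, was among the separated genes. Its level was 239.9, 296.1, 617.6 and 871.5 CPM in samples 55, 56, 3 and 50, and 1692 to 35149 CPM in micro-EMB with a median of 7711. Its log2 fold change was 4.29 ± 1.34 (SE, n = 6 and 4), with an unadjusted p of 0.00496 and an adjusted p of 0.286 by edgeR. In the 7 samples it was 3.13 ± 1.66 (SE), with an unadjusted p of 0.0854 by edgeR. Sample 22 was the lowest micro-EMB sample for this gene and sample 34 the highest.

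POSTN, which encodes periostin, a matrix protein made by activated fibroblasts, was also separated. It stood at 99.9, 270.9, 114.7 and 258.2 CPM in samples 55, 56, 3 and 50. In micro-EMB it ranged from 518 to 7915 CPM with a median of 1481, giving a log2 fold change of 4.11 ± 1.08 (SE). Samples 34 and 22, from different pigs, held the highest levels, and the adjusted p by edgeR was 0.241. Its log2 fold change in the 7 samples was 3.81 ± 1.38 (SE).

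Among the fibrillar collagens, COL1A2, a chain of collagen I, stood at 66.6, 778, 132.4 and 1576 CPM in samples 55, 56, 3 and 50. Micro-EMB samples held 1473 to 22539 CPM with a median of 10696, and only sample 44 fell within the conventional range. COL3A1, the collagen III chain abundant in young scar, showed the same order, with 107, 1896, 274 and 5600 CPM in conventional EMB and 1481 to 37503 CPM in micro-EMB. Sample 44 was again the micro-EMB sample that overlapped. The log2 fold changes were 4.26 ± 1.29 (SE) for COL1A2 and 3.32 ± 1.38 (SE) for COL3A1, and in the 7 samples 3.69 ± 1.27 and 2.72 ± 1.32 (SE).

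The minor fibrillar and microfibrillar collagens had the same sign. COL5A1, a collagen V chain that starts fibril assembly, had the largest value of the list, 4.99 ± 1.38 (SE, adjusted p = 0.241 by edgeR). COL6A2, a chain of the collagen VI microfibril, had 3.98 ± 1.13 (SE). For each, 5 of the 6 micro-EMB samples were above all conventional EMB samples, and sample 44 overlapped for both. Their values in the 7 samples were 4.28 ± 1.57 and 3.54 ± 1.11 (SE).

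Other matrix proteins followed. BGN, the proteoglycan biglycan, was at 42.2, 45.7, 0 and 66.5 CPM in samples 55, 56, 3 and 50, and at 79.1 to 1146 CPM in micro-EMB. TNC, or tenascin-C, an adhesion-modulating protein of wounds, was at 62.2, 50.4, 17.6 and 21.8 CPM in conventional EMB and at 67.0 to 708 CPM in micro-EMB. Neither gene overlapped between the devices, though the lowest TNC value in micro-EMB lay within 5 CPM of the highest in conventional EMB. MMP14, a membrane-bound protease that cuts collagen, and VIM, the intermediate filament of mesenchymal cells, were separated as well, with log2 fold changes of 2.55 ± 0.77 and 2.16 ± 0.77 (SE). In the 7 samples BGN, TNC, MMP14 and VIM had log2 fold changes of 2.83, 2.59, 2.34 and 1.76, and VIM then had an unadjusted p of 0.0654 by edgeR.

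Some members differed little. PLOD1, a lysyl hydroxylase that modifies new collagen, had a log2 fold change of 0.28 ± 0.66 (SE), which was -0.07 in the 7 samples, and THBS1, or thrombospondin-1, which platelets also carry, had 0.68 ± 0.91 (SE). THBS1 was highest of all 10 samples in sample 34 and next in sample 3, the sample with the largest blood share. CCN2, a matricellular growth factor that the heart expresses under load, had 1.25 ± 0.95 (SE).

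**Figure D3:**
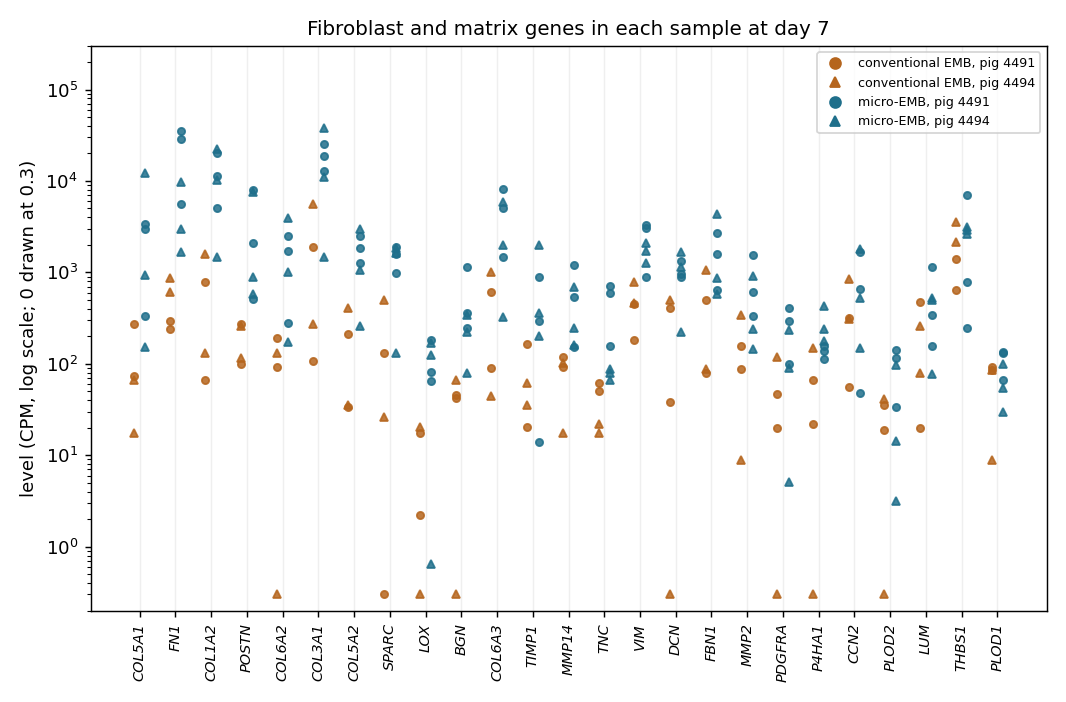
Level of the 25 tested fibroblast and matrix genes in each sample (y axis, CPM on a log scale, with a level of 0 drawn at 0.3), ordered from left by log2 fold change. For FN1, POSTN, BGN, TNC, MMP14 and VIM all micro-EMB points lie above all conventional EMB points, in 9 others only sample 44 is not above them all, and in TIMP1 only sample 15.

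Without samples 3, 44 and 55 the matrix values moved little. Of 26 members then tested, 24 were positive, with a median log2 fold change of 2.41 against -0.05 over all genes, and 13 had an unadjusted p under 0.05 (3.06% of all genes were higher by that rule). For 15 of them the 5 micro-EMB samples did not overlap with the 2 conventional EMB samples, against 5.47% of all genes. The median was 2.88 in pig 4491 and 2.11 in pig 4494, each fitted alone. When all samples under 1000000 reads were left out, only sample 50 remained of the conventional EMB, and 21 of 26 members were positive with a median of 1.30 and with 0 at an unadjusted p under 0.05. DESeq2 called 12 of 26 members higher, among them FN1, COL1A2, COL5A1 and POSTN, against 71 of all 13054 genes it tested. Without a filter on low counts edgeR called 11 of 26 members higher, against 76 of all 19229 genes.

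The 10 genes with the smallest p in the higher direction included matrix, complement and lipid transport genes. APOE, an apolipoprotein made by macrophages among other cells, had the smallest p of all, with a log2 fold change of 6.22 ± 1.21 (SE) and an adjusted p of 0.241 by edgeR. Its level was 2.22, 3.15, 8.82 and 3.02 CPM in samples 55, 56, 3 and 50, which came from only 1, 2, 1 and 5 reads. In micro-EMB it was 4.89 CPM in sample 15 and 68.2 to 656 CPM in the other 5. Sample 15 alone overlapped with conventional EMB. Its log2 fold change in the 7 samples was 6.07 ± 1.68 (SE). With the blood share as a covariate, APOE was the 1 gene called, with an adjusted p of 0.0421.

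THBS2, or thrombospondin-2, which regulates collagen fibril assembly, did not overlap, at 42.5 to 75.5 CPM in conventional EMB and 161 to 1521 CPM in micro-EMB. COL8A1, a short-chain collagen of vessel walls and remodelling heart, did not overlap either, at 0 to 17.6 CPM and 61.4 to 673 CPM. C3, the central complement protein, stood at 57.7, 64.6, 8.82 and 44.8 CPM in samples 55, 56, 3 and 50 and at 129 to 3375 CPM in micro-EMB. Its highest levels, in samples 8 and 22, were far above the rest. ALDH1A2, which makes retinoic acid and marks the epicardium, was at 0 to 38.7 CPM in conventional EMB and 56.2 to 477 CPM in micro-EMB, and sample 22 was again the highest. THBS2, COL8A1, C3 and ALDH1A2 had log2 fold changes of 3.92, 4.19, 4.70 and 3.45 in the 7 samples. Another 4 of the 10 genes had no symbol in the sources used, among them ENSSSCG00000027593 and ENSSSCG00000015122, with log2 fold changes of 6.16 ± 1.29 and 3.48 ± 0.76 (SE).

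Samples 8 and 22 also carried keratin. KRT8, a keratin of simple epithelia that includes the mesothelium covering the heart, was at 1648, 1089 and 176 CPM in samples 8, 22 and 44. It was at 0 to 28.4 CPM in samples 15, 34 and 39 and at 0 to 46.6 CPM in conventional EMB. WT1, a transcription factor of epicardial cells, was likewise highest in samples 22 (299 CPM) and 8 (158 CPM), against at most 80.9 CPM elsewhere. KRT18, the usual partner of KRT8, did not share this order, with 10.0 and 1.38 CPM in samples 8 and 22, at most 8.93 CPM in the other micro-EMB samples and 0 to 22.2 CPM in conventional EMB. Only these 3 of the 7 mesothelial genes could be tested, with log2 fold changes of 4.80 ± 1.74, 2.29 ± 1.23 and -0.76 ± 2.04 (SE) for KRT8, WT1 and KRT18, and the part of these cells in the C3 and ALDH1A2 values was not tested.

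Macrophage genes did not move as a block. Of 13 tested markers 9 were positive, with a median log2 fold change of 1.10, and 3 had an unadjusted p under 0.05, all higher. Of all genes tested, 53.5% were positive with a median of 0.10, and 3.79% were higher at that p. LGALS3, or galectin-3, a lectin secreted by macrophages that is used as a marker of heart fibrosis, had 11.1, 0, 0 and 0 CPM in samples 55, 56, 3 and 50. In micro-EMB it had 446, 7.33 and 24.1 CPM in samples 8, 15 and 34 and 415, 90.2 and 56.8 CPM in samples 22, 39 and 44. Only sample 15 overlapped with sample 55, and the log2 fold change was 6.19 ± 1.56 (SE, adjusted p = 0.241 by edgeR). Without samples 3, 44 and 55 both conventional EMB samples had 0 reads of it. With 3 reads over those samples as the limit, 1.31 CPM, the micro-EMB mean of 196 CPM lay about 150-fold above it. That mean was set mostly by samples 8 and 22, and sample 15, at 7.33 CPM, lay far closer to the limit.

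C1QA, a chain of complement C1q made by tissue macrophages, had a log2 fold change of 3.40 ± 0.94 (SE), with 0 to 20.5 CPM in conventional EMB and 17.1 to 270 CPM in micro-EMB. CTSB, or cathepsin B, a lysosomal protease, had 1.72 ± 0.72 (SE). In the 7 samples these were 3.12 ± 1.16 and 1.16 ± 0.74 (SE), and CTSB then had an unadjusted p of 0.142 by edgeR. In contrast FCER1G, a signalling chain of Fc receptors in all myeloid cells and in platelets, was highest in samples 3 (953 CPM) and 44 (917 CPM), and its log2 fold change was -1.65 ± 1.10 (SE), but 1.21 ± 1.17 (SE) without samples 3, 44 and 55. Both samples had a high blood share, whose part in this value was not tested. Of the 22 macrophage genes that the study took from the literature, 13 were positive with a median of 0.16 and 0 had an unadjusted p under 0.05, and in the 7 samples 10 were positive with a median of -0.04. Of its 58 inflammatory genes, likewise taken from the literature, 28 were positive with a median of -0.06, and of the 56 tested in the 7 samples 24 were, with a median of -0.18. Over all genes tested, 53.5% were positive with a median of 0.10, and in the 7 samples 48.6% with a median of -0.05.

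Genes of TGF-beta signalling and of the plasminogen system, which control matrix production and fibrin removal, were all on the positive side. All 13 tested members had a positive log2 fold change, with a median of 1.02, where 53.5% of all genes were positive with a median of 0.10. LTBP2 and PLAT had an unadjusted p under 0.05 (3.79% of all genes were higher by that rule). PLAT, the tissue plasminogen activator, stood at 86.6, 50.4, 17.6 and 113 CPM in samples 55, 56, 3 and 50 and at 45.9 to 545 CPM in micro-EMB, with only sample 44 within the conventional range. SMAD3, which carries the TGF-beta signal to the nucleus, did not overlap between the devices, but its highest conventional value (123.4 CPM) and its lowest micro-EMB value (123.5 CPM) nearly met. With DESeq2-type size factors 10 of the 13 were positive and the median was 0.62, and in the 7 samples 11 were positive with a median of 0.85.

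Mitochondrial energy genes stood lower in micro-EMB, and that order rested on the conventional EMB samples that held the most cardiomyocyte RNA. Of 46 tested subunits of oxidative phosphorylation, the chain that makes ATP in mitochondria, 4 were positive, the median log2 fold change was -1.13, and 3 had an unadjusted p under 0.05 in the lower direction (3.78% of all genes). Summed, they stood at 1097 and 724 CPM in conventional EMB samples 55 and 3 but at 12446 and 11484 CPM in samples 56 and 50. Micro-EMB samples held 1344 to 6688 CPM, between those pairs. Without sample 50, 22 of the 46 were positive and the median was -0.05.

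Without samples 3, 44 and 55, 45 of the 46 subunits were negative, with a median of -1.90, and 23 had an unadjusted p under 0.05, where 1.98% of all genes were lower by that rule. For 28 of them the 5 micro-EMB samples lay below both remaining conventional EMB samples, against 6.85% of all genes. COX5A, a subunit of cytochrome c oxidase, was at 307 and 189 CPM in samples 56 and 50, at 27.6, 91.02 and 90.6 CPM in micro-EMB samples 8, 15 and 34 and at 4.14 and 12.6 CPM in samples 22 and 39, a log2 fold change of -3.39 ± 0.78 (SE). NDUFA11, a complex I subunit, and ATP5IF1, the inhibitor of ATP synthase, had -3.08 ± 0.79 and -2.72 ± 0.66 (SE) in the same fit. None was called, since the smallest adjusted p in that fit by edgeR was 0.931.

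Fuel genes followed the same order in the 7 remaining samples. PDK4, a kinase that shifts the heart from glucose to fat, had a log2 fold change of -2.29 ± 0.60 (SE) there and -1.66 ± 0.94 (SE) over all 10 samples. ACADSB, an enzyme of short branched-chain acyl-CoA breakdown, stood at 299 and 339 CPM in samples 56 and 50 and at 33.3 to 137 CPM in the 5 micro-EMB samples. Of 8 fatty acid and energy genes tested, 1 was positive in each fit, and the median moved from -0.81 to -1.64.

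Contractile genes had the same sign but smaller differences. The 10 tested members had a median log2 fold change of -0.73 over all samples, with 1 positive and 0 at an unadjusted p under 0.05, and of -1.47 with 0 positive and 1 at that p without samples 3, 44 and 55. Without sample 50 the sign turned, with 9 of 10 positive and a median of 0.47. MYH6, a heavy chain of cardiac myosin that shares sequence with its neighbour MYH7, ranged from 9727 to 74269 CPM in micro-EMB and stood at 124, 56050, 4641 and 90001 CPM in samples 55, 56, 3 and 50. Samples 8, 22 and 44 were the micro-EMB samples with the least contractile RNA, at 14906, 16780 and 20545 CPM in sum, and samples 15 and 39 had the most. Sample 39 held both the second highest matrix sum, 106536 CPM, and a contractile sum of 91516 CPM.

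**Figure D4:**
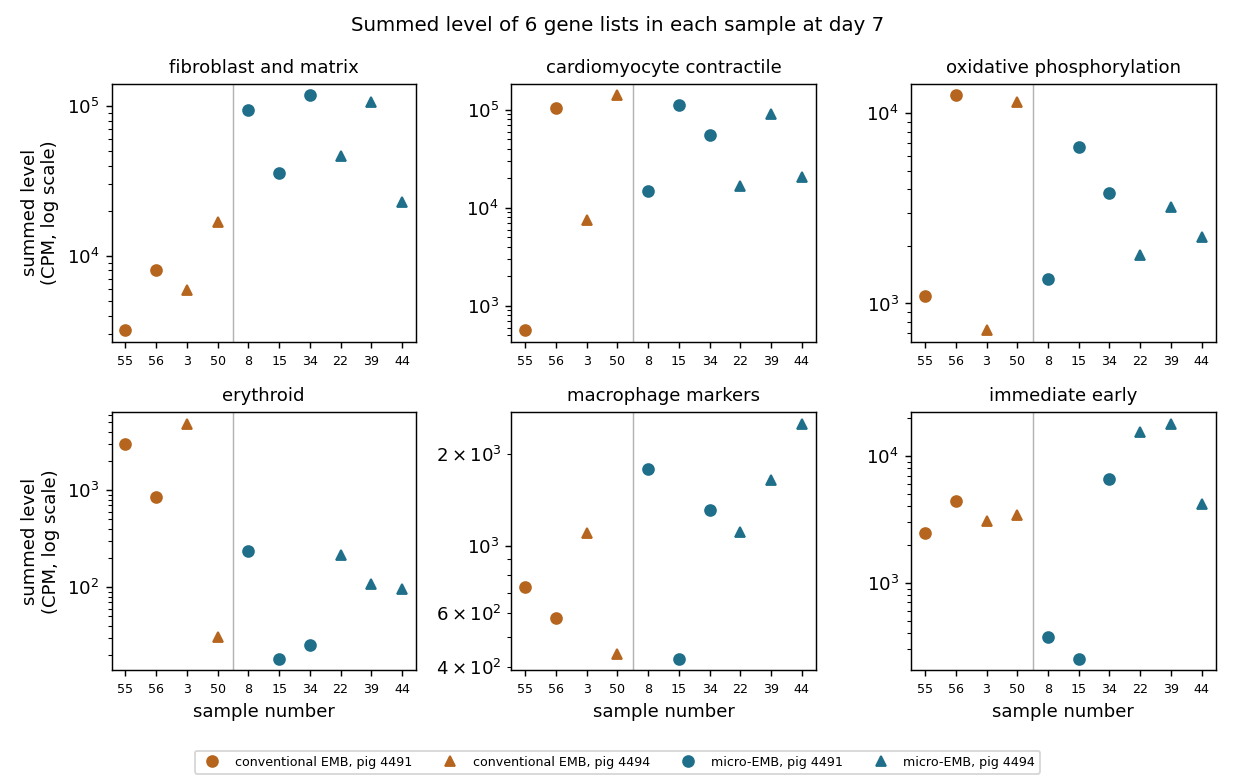
Summed level of 6 gene lists (y axis, CPM on a log scale) in each sample (x axis, sample number), with conventional EMB in brown left of the line and micro-EMB in blue right of it. Matrix sums of all micro-EMB samples lie above all conventional EMB samples, while contractile and oxidative phosphorylation sums place samples 55 and 3 below and samples 56 and 50 above most or all micro-EMB samples.

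Red cell genes stood lower in micro-EMB, together with the blood share of the conventional EMB samples. HBB, the beta chain of haemoglobin, whose close family members can share reads, was at 2519, 695, 4235 and 24.8 CPM in samples 55, 56, 3 and 50. Micro-EMB samples held 15.9 to 196 CPM with a median of 63.2, so sample 50 lay inside their range and the other 3 above it. The log2 fold change was -4.37 ± 1.06 (SE, adjusted p = 0.241 by edgeR), and it was -1.68 without samples 3, 44 and 55, with an unadjusted p of 0.238. ALAS2, the first enzyme of heme synthesis in red cells, and SLC4A1, the red cell anion exchanger, also had an unadjusted p under 0.05 over the 10 samples, and had one of 0.426 and 0.153 by edgeR in the 7.

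Platelet and lymphocyte genes depended on the same samples. TUBB1, the platelet form of beta-tubulin, was at 1519 and 1915 CPM in samples 55 and 3, against 26.8 and 4.23 CPM in samples 56 and 50 and 0 to 283 CPM in micro-EMB. ITGB3, an integrin chain of platelets that other cells also make, was at 398, 6.30, 750 and 15.7 CPM in samples 55, 56, 3 and 50 and at 2.44 to 344 CPM in micro-EMB. Its log2 fold change turned from -0.78 ± 1.07 (SE) over the 10 samples to 3.49 ± 1.41 (SE, unadjusted p = 0.0299 by edgeR) in the 7, and the median of these 2 tested platelet genes turned from -2.45 to 2.23. All 7 tested lymphocyte genes were negative with a median of -2.62, and without samples 3, 44 and 55 the 4 still testable had a median of -0.86. The neutrophil genes did not move together. S100A8, an abundant protein of neutrophils, was at 918 CPM in sample 44 and at 0 to 5.72 CPM in the other 9 samples, and it did not pass the filter on low counts. MMP9, a protease stored in neutrophil granules, was at 53.3, 37.8, 8.82 and 0.605 CPM in samples 55, 56, 3 and 50 and at 0 to 0.638 CPM in micro-EMB, a log2 fold change of -5.73 ± 1.76 (SE). MPO and LTF, which encode granule proteins, were at 64.4 and 28.9 CPM in sample 55 and at 0 in sample 44. HBB in sample 44 was only 39.6 CPM.

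The endocardial list stood higher in micro-EMB, and the vessel lists were near 0. All 4 tested endocardial genes were positive with a median of 1.80, and of 3.11 without samples 3, 44 and 55. At an unadjusted p under 0.05, 1 and 2 of them were higher, where 3.79 and 3.06% of all genes were. In the 7 samples 3 of the 4 overlapped between the devices. In pig 4491 alone 3 of 4 were positive with a median of 1.68, and in pig 4494 all 3 tested, with 2.28. NFATC1, a transcription factor of endocardium and developing valves, stood at 6.30 to 24.2 CPM in conventional EMB and at 21.4 to 203 CPM in micro-EMB. CDH11, a cadherin of mesenchymal and valve cells, was at 1299 CPM in sample 22 and 651 CPM in sample 8, but at 547 CPM in sample 3 too. The 8 endothelial genes had a median of -0.11, or -0.16 in the 7 samples, with 0 at an unadjusted p under 0.05 in each, and PECAM1, an adhesion molecule of all endothelium, had a log2 fold change of 0.05 ± 0.76 (SE), which was -0.26 in the 7 samples. ACTA2, the actin of smooth muscle and myofibroblasts, was at 3368 CPM in sample 15 and at 72.2 to 630 CPM in the other micro-EMB samples.

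Stress-response genes varied widely within micro-EMB. Immediate early genes are switched on within minutes of a stimulus, and 15 of them summed to 376 and 252 CPM in samples 8 and 15 but to 15399 and 17905 CPM in samples 22 and 39. Conventional EMB samples held 2470 to 4378 CPM, inside that range. FOS, a subunit of the AP-1 factor, ranged from 12.8 to 2919 CPM in micro-EMB and from 387 to 1271 CPM in conventional EMB. Of the 14 tested, 11 were positive with a median of 1.01, but without sample 34 only 4 were positive and the median was -0.78. In the 7 samples 12 were positive with a median of 0.94. HSPA5, the main chaperone of the endoplasmic reticulum, where matrix proteins are folded, had a log2 fold change of 1.71 ± 0.72 (SE, unadjusted p = 0.0298, adjusted p = 0.561 by edgeR). That value was 0.76 ± 0.60 in the 7 samples (SE, unadjusted p = 0.23 by edgeR).

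In the remaining lists at most 2 members had an unadjusted p under 0.05, and several medians turned in the 7 samples. For reference, 53.5% of all genes were positive with a median of 0.10, against 48.6% and -0.05 in the 7 samples. Of 38 ribosomal protein genes 23 were positive with a median of 0.17, against 10 of 37 and -0.37 in the 7 samples. Of 11 interferon-induced genes 3 were positive with a median of -0.25, against 8 and 0.31 in the 7 samples. Of 9 proliferation genes 3 were positive with a median of -0.41, against 1 and -1.34. The 12 genes of hypoxia and glycolysis had a median of 0.08, against -0.40, and NDRG1, a hypoxia-induced gene, was the only one with an unadjusted p under 0.05, at a log2 fold change of 3.05 ± 0.81 (SE). The 8 heat shock genes had a median of 0.82, the 6 basement membrane genes of 1.09 and the 9 smooth muscle and pericyte genes of 0.36, against 0.18, 0.57 and 0.19 in the 7 samples. The medians of the 4 calcium and electrical, 3 cardiac stress and 2 conduction genes were -0.18, -0.62 and -0.29, against -1.01, -1.42 and -0.75. Those of the 4 skeletal muscle, 3 adipocyte and 2 antigen presentation genes were -0.91, -0.13 and -1.20, against -3.04, -0.82 and -0.89.

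**Figure D5:**
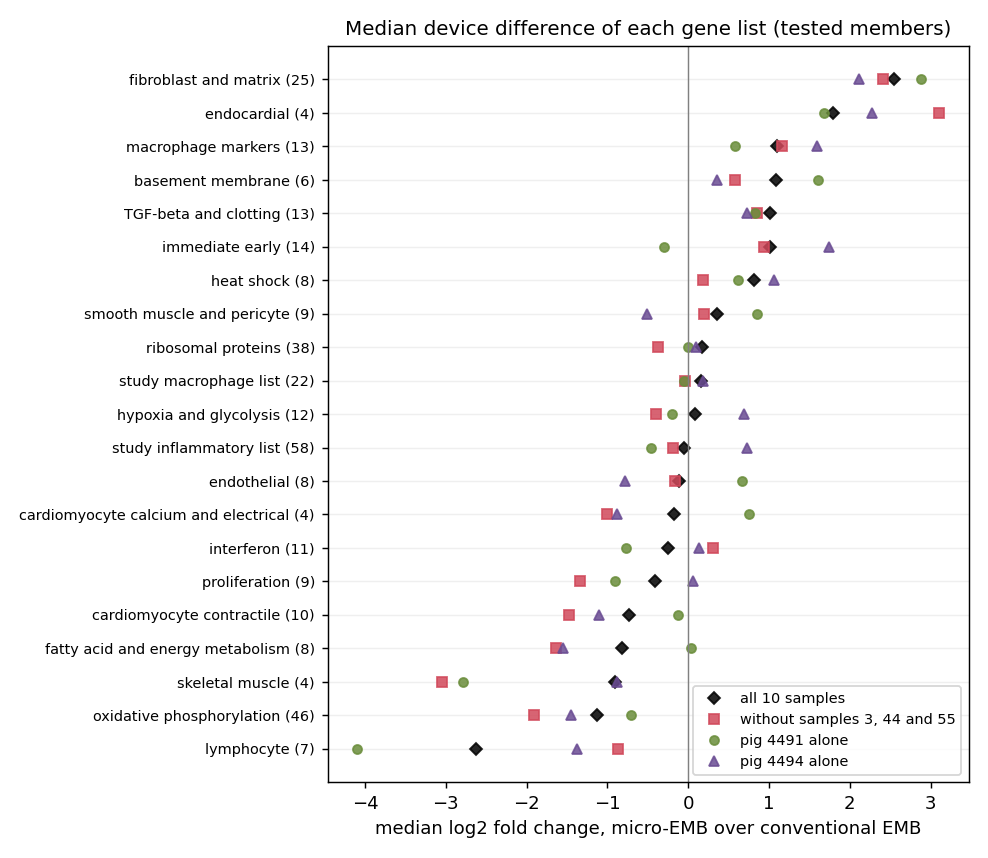
Median log2 fold change of the tested members of each gene list with at least 4 tested (x axis, micro-EMB over conventional EMB), for all 10 samples, for the 7 left without samples 3, 44 and 55, and for each pig alone. The fibroblast and matrix list stays between 2.11 and 2.88, the oxidative phosphorylation list stays below 0, and the lymphocyte list is lowest in pig 4491.

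The 10 genes with the smallest p in the lower direction included genes known from epithelium, nerve or gland, most with hardly a read in micro-EMB. SCNN1A, a subunit of the epithelial sodium channel, had 45, 20, 4 and 4 reads in samples 55, 56, 3 and 50 and 0 in every micro-EMB sample. With 3 reads over the micro-EMB group as the limit, 0.308 CPM, micro-EMB was at least 137-fold below the conventional EMB mean of 42.3 CPM. That bound is for the mean only, since conventional EMB samples ranged from 2.42 to 99.9 CPM. TG, the precursor of thyroid hormone, had 64, 22, 2 and 2 reads in conventional EMB and 3 reads in all micro-EMB samples together.

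NFASC, a cell adhesion molecule of axons, had 15, 67, 2 and 0 reads in samples 55, 56, 3 and 50 against 1 in micro-EMB. SLC4A5, a bicarbonate transporter, VIL1, the villin of brush borders, and MGAT5B, a glycosyltransferase of brain, had the same layout, with 0 reads in sample 50. CDH9, a cadherin of nerve cells, had 24, 6, 0 and 28 reads against 1 in micro-EMB. SORL1, a sorting receptor that white blood cells also express, had reads in every micro-EMB sample but stood lower there. It was at 604, 172, 900 and 55.0 CPM in samples 55, 56, 3 and 50 and at 7.53 to 95.7 CPM in micro-EMB. Among the genes without a symbol, ENSSSCG00000026007 had 214, 16, 36 and 23 reads in samples 55, 56, 3 and 50 and 6 to 27 reads in each micro-EMB sample, and ENSSSCG00000007964 had 74, 12, 35 and 6 reads against 0 to 36. In the 7 samples the log2 fold change of SORL1 was -1.94 ± 0.83 and that of ENSSSCG00000026007 moved from -4.11 ± 0.88 to -0.78 ± 1.22 (SE).

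Many more genes were called in pig 4491 alone. In that pig, with 3 micro-EMB and 2 conventional EMB samples, 981 of 11292 genes (8.69%) were called lower in micro-EMB and 30 (0.266%) higher. The 981 genes had a median of 16 reads in each of samples 55 and 56, and of 0 reads in samples 8, 15 and 34. They made up 7.18% of the reads in sample 55 and 3.19% in sample 56, against 0.0480 to 0.0595% in the micro-EMB samples of that pig. The choice of the genes fixed that contrast. In pig 4494, which had no part in choosing them, they made up 2.03% of the reads of sample 3 and 0.0887% of those of sample 50, against 0.243 to 0.318% in its micro-EMB samples. At baseline their share was 0.0560 to 6.41% in the series' 20 micro-EMB samples, highest in sample 19 of pig 4494. It was 0.0689 to 1.87% in the 6 baseline conventional EMB samples, 2.58 to 4.82% in skeletal muscle and 0.867 to 1.27% in blood. Without sample 55, 0 genes were called in pig 4491 (1402 at an unadjusted p under 0.05), with sample 56 as the only conventional EMB sample. In pig 4494 alone, 0 of 10239 genes were called and 250 (2.44%) had an unadjusted p under 0.05, and without samples 3 and 44, 16 higher and 1 lower were called from 2 micro-EMB samples and the 1 conventional EMB sample 50, which is assumed to vary as the micro-EMB samples do.

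More genes were detected per read in samples 55 and 56. They had 16309 and 15481 genes at 1 CPM or more, against 6807 and 12170 in samples 3 and 50 and 9168 to 12549 in micro-EMB. With every sample drawn down at random to 74767 reads, samples 55 and 56 still had 13261 and 11090 genes, and the other 8 had 6528 to 8646. Micro-EMB samples averaged 11279 ± 1399 genes (SD, n = 6), against 12692 ± 4311 genes (SD, n = 4) for conventional EMB. Their difference, -1413 genes, was not past the threshold in an exact two-sided permutation of device labels within pigs (p = 0.34, where the smallest p the 100 relabellings allow is 0.01), and after drawing down it was -1871 genes (exact permutation p = 0.08). Without sample 3 and without drawing down, the difference was -3375 genes (exact permutation p = 0.025, the smallest that 40 relabellings allow). Depth was not matched in that value. At 1 CPM, 1 read was enough in samples 55 and 56 and in micro-EMB sample 8. In sample 50 and micro-EMB samples 15, 34, 22, 39 and 44 it was not. The difference after drawing down was not tested without sample 3.

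The device difference was then compared between the pigs and between the days. No gene of 14113 passed the test of a pig-by-device term by edgeR (0%), with a smallest adjusted p of 0.528 and with 1098 (7.78%) at an unadjusted p under 0.05. Between follow-up and baseline, with 8 micro-EMB and 6 conventional EMB samples of the same pigs at day 0, the device-by-timepoint term was called for 343 of 12939 genes (2.65%). All 343 had a lower micro-to-conventional ratio at follow-up. The 5 with a symbol and the smallest p were TMC5, DSCAM, TRPC5, MAST1 and VAT1L, each with a mean of 38.2 to 86.2 CPM in conventional EMB and of at most 0.431 CPM in micro-EMB at follow-up. At baseline their means were at most 1.13 CPM in conventional EMB and 10.5 to 23.7 CPM in micro-EMB. Most of each of those micro-EMB means came from the highest sample, which reached 76.0 to 171 CPM. The term uses the same follow-up samples as the device comparison. Without baseline samples 10 and 21, micro-EMB samples with 1386 and 1689 detected genes, 0 were called (1601 at an unadjusted p under 0.05).

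None of the matrix genes was among the 343. At baseline 16 of the 25 matrix genes were positive, with a median of 0.15 against -0.47 over all genes, and 0 had an unadjusted p under 0.05. Without samples 10 and 21 the median was 0.63 against -0.08, with 3 members higher and 1 lower at an unadjusted p under 0.05 by edgeR. The difference between follow-up and baseline was positive for all 25, with a median of 2.52 against 0.33 over all genes. Of the 25, 5 had an unadjusted p under 0.05, where 9.57% of all genes did in either direction. POSTN had the largest difference between the days in this list, 4.01 ± 1.49 (SE), with an unadjusted p of 0.00935 and an adjusted p of 0.181 by edgeR. For FN1 it was 3.84 ± 1.74 (SE, adjusted p = 0.399 by edgeR).

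Distances between whole samples were compared within and between devices. The distance between samples was the root mean square difference of log2 CPM over the 12137 genes. It averaged 1.96 over 6 pairs of micro-EMB samples from the same pig (range 1.20 to 2.68) and 2.29 over 12 pairs of different devices from the same pig (1.67 to 3.09). The 2 conventional EMB pairs lay 1.92 (samples 55 and 56) and 2.95 (samples 3 and 50) apart. The 25 pairs from different pigs averaged 2.22 (1.00 to 3.03), and the closest was conventional EMB sample 50 with micro-EMB sample 15. Sample 3, with 74767 reads, had the largest mean distance to the other samples of its pig, 2.92. The part of depth in these distances was not tested. Within pigs, pairs of different devices were 0.21 farther apart than pairs of 1 device (exact permutation p = 0.09). Micro-EMB pairs were 0.48 closer than conventional EMB pairs (exact permutation p = 0.27). Neither difference passed the threshold.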

How the data were processed

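Total RNA of each piece was isolated with a bead-based tissue kit and made into libraries with a stranded low-input total RNA kit. The authors deposited whole-number read counts per gene, without normalization, after trimming with Trim Galore, mapping to Sscrofa10.2 with STAR and assignment with featureCounts; the strand setting and tool versions are not given in the sources used here. RNA was isolated in batches to which samples were assigned at random; the labels do not give the batches, so none could be examined.

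Counts were tested with edgeR 4.0.16 in R 4.3.3 (TMM, filterByExpr, quasi-likelihood test, pig as covariate, Benjamini-Hochberg adjustment over all genes tested), checked on simulated data, with DESeq2 1.42.0 as an alternative. The simulation held only large changes in genes with many reads, so it does not show which smaller differences the test could detect. A gene was called at an adjusted p under 0.05 and a log2 fold change beyond 1. The pig-by-device and device-by-timepoint terms were called at an adjusted p under 0.05 alone. SEs were derived from the F statistic. Blood genes had a median of at least 50 CPM in the blood samples and under 1 CPM in skeletal muscle. Distances used a prior count of 2. Symbols were found for 11793 of 25114 gene identifiers and 8599 of the 12137 tested. Genes named are the 10 with the smallest p in each direction, list members with high mean CPM, the called genes and the leading interaction genes; others were named after their values were seen. The compared samples and gene lists were chosen with earlier results of these data known. Alternatives changed scaling, filter, test, samples and covariates. Blood, skeletal muscle and the other pigs served for reference or were not used.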

Additional observations from a re-analysis of the deposited data

Results flagged for a closer look

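Of 66 sets of values tested for a single sample far from the rest, 7 held one, where chance gives about 1 in 20. In sample 44, a micro-EMB sample of pig 4494, the share of reads on blood genes was 0.614%, against 0.149% in the next micro-EMB sample. The same sample stood apart in the summed level of 4 lists. Its neutrophil genes summed to 919 CPM, nearly all of it S100A8, while MPO and LTF were at 0 and MMP9 at 0.638 CPM there and all 3 were higher in conventional EMB samples 55 and 56. Its interferon-induced genes summed to 2390 CPM, its proliferation genes to 781 CPM and the study's macrophage list to 2651 CPM. Sample 15 stood apart in smooth muscle and pericyte genes, with 5473 CPM against 2086 CPM in the next sample, and ACTA2 made up 3368 CPM of it. Sample 22 stood apart in adipocyte genes, with 179 CPM against 41.0 CPM, and PLIN1, a coat protein of fat droplets, made up 117 CPM of it.

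The device difference differed between follow-up and baseline for 343 genes, by the test of that difference in edgeR, and for 0 genes without baseline samples 10 and 21.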

How the results depend on the processing

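No gene was called in either direction under DESeq2-type size factors, with counts summed per pig and device, in pig 4494 alone, without samples under 1000000 reads (1 conventional EMB sample left), or without any single sample (0 to 0). The counts of genes called higher and lower in micro-EMB were 1 and 0 with the blood share as a covariate, 71 and 531 by DESeq2, and 76 and 258 without a filter on low counts. They were 3 and 180 with all 24 heart samples of both pigs in the fit, 30 and 981 in pig 4491 alone, and 16 and 1 in pig 4494 without samples 3 and 44, a setting chosen after seeing the data that leaves 2 micro-EMB samples against the 1 conventional EMB sample 50, assumed to vary as they do. The pig-by-device term was called for 24 genes without the filter. The device-by-timepoint term was called for 651 genes without samples 3, 44 and 55, 2516 without the filter, 749 with the other size factors, 0 without baseline samples 10 and 21 (also chosen after seeing the data), and 161 (without sample 55) to 1403 (without sample 50), with 1128 without sample 3. The cause was not tested.

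The pig was the replicate block, since the numbers in the labels do not pair samples. Without the block 0 genes were called in each direction (696 at an unadjusted p under 0.05), and the exact permutation p was 0.476 for expressed genes, 0.433 for the spread within devices and 0.267 for the distance between devices. It changed no call.

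The difference in expressed genes, not matched for depth, ranged from -3375 to -208 when each sample was left out. That in spread ranged from -1.03 to -0.03 and that in distance from 0.06 to 0.56. The distance difference was 0.34 without the filter (exact permutation p = 0.04) and 0.56 without sample 50 (exact permutation p = 0.025). The spread could not be computed without samples 3, 44 and 55. By the study's own list of blood genes the blood share was 9.55, 5.26, 12.9 and 4.85% in samples 55, 56, 3 and 50, 5.90, 5.44 and 5.11% in samples 8, 15 and 34, and 6.97, 2.96 and 12.4% in samples 22, 39 and 44. By that list the blood samples had 33.1 to 42.3% and skeletal muscle 3.16 to 4.77%. It placed sample 44 above sample 55, the reverse of their order by the 115 blood genes. Of 2787 values of 119 named genes under the alternatives, 89 passed the threshold, and the sign turned in 336, in 74 genes; since no gene was called over the 10 samples, no call could be lost. Depth and device cannot be told apart, because 3 of 4 conventional EMB samples had fewer reads than every micro-EMB sample.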
